A study of Homo sapiens with 9 samples.

Results

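Lineage genes of the stomach and the intestine, 10 in number, were followed in SNU5, a human line established from gastric carcinoma, to see which of them the line expresses and how their mRNA levels stood in each treatment group. The genes were the mucins MUC1, MUC13, MUC5AC and MUC2, the trefoil factors TFF1, TFF2 and TFF3, the transcription factor CDX2, the cadherin CDH17 and the claudin CLDN18. All 10 symbols were matched to Ensembl IDs among the 60880 gene IDs of the count files. Cells of the NR group received ramucirumab, a monoclonal antibody against VEGFR2, on gold nanorods (AuNR-PEG-Ab). In the SP group the same antibody was carried by gold nanospheres (AuSP-PEG-Ab), and the Ab group was given the free antibody. Every group had 8 μg/mL of ramucirumab for 24 h and 3 poly-A RNA-seq libraries, 9 in all, and no group was left without antibody. SNU5 is 1 cell line, so that the values describe that line and not gastric tumours as a class. Sequencing depth, as the sum of counts in libraries 1, 2 and 3, was 25735410, 13863155 and 15943980 with NR, 21682836, 22914759 and 20601906 with SP, and 19566064, 26318227 and 21031024 with Ab, so a raw count must be read against its library.

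Mucins are large proteins with many O-linked sugar chains. Gel-forming mucins such as MUC5AC in the surface of the stomach and MUC2 in intestinal goblet cells are secreted, whereas MUC1 and MUC13 span the membrane of epithelial cells. Trefoil factors are small secreted peptides that accompany gastric mucins (TFF1 and TFF2) or the goblet cell mucin (TFF3). CDX2 is the master transcription factor of intestinal identity, CDH17 is a cell adhesion protein of the intestinal epithelium under its control, and CLDN18 is the tight junction claudin whose gastric form marks stomach epithelium. Gastric carcinomas often carry gastric and intestinal markers side by side.

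The cells were first checked against markers of their labelled type. Epithelial keratins were abundant, with KRT8 at 998, 1057 and 372 TPM (counts divided by exon length and scaled to a common total) on average in NR, SP and Ab, and KRT18 at 366, 361 and 264 TPM. Both keratins have many near-identical pseudogene copies, so their counts are uncertain. Other epithelial markers were scarce. CDH1, which encodes E-cadherin, had 150, 79 and 88 counts with NR, 134, 159 and 149 with SP, and 5, 5 and 9 with Ab. EPCAM had 63 to 141 counts in the nanoparticle libraries and 29 to 43 with Ab, and KRT19 was at 0 or 1 count in all 9 libraries. Thus a keratin-positive line was seen in which E-cadherin mRNA was close to the detection floor of 3 counts (0.114 to 0.216 CPM, counts scaled to a common library total) with free antibody. The identity of the line was not tested beyond these markers, and the name SNU5 rests on the study's description. Hepatocyte markers were at the floor (4 of 4), as were 3 of 4 leukocyte markers, with CD14 at 8 to 21 counts in Ab. Fibroblast markers were expressed (5 of 5), and of 3 endothelial markers CDH5 had 69 to 105 counts in Ab and VWF 0 or 1.

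A gene was taken as expressed when all libraries of at least 1 group reached 1 CPM. Of the 10 genes 4 were expressed, MUC1, MUC13, MUC5AC and MUC2. MUC2 met the level through Ab alone (2.39 to 2.85 CPM), with SP at 0.582 to 0.698 CPM and the lowest NR library at 0.502 CPM. Another 3, CLDN18, TFF1 and TFF2, rose above 3 counts in some library, but none reached 1 CPM in all libraries of a group. The last 3, TFF3, CDX2 and CDH17, never exceeded 3 counts in any library. Lowering the level to 0.5 CPM added CLDN18, and raising it to 2 CPM left the number at 4, with MUC2 again through Ab alone.

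**Figure D1:**
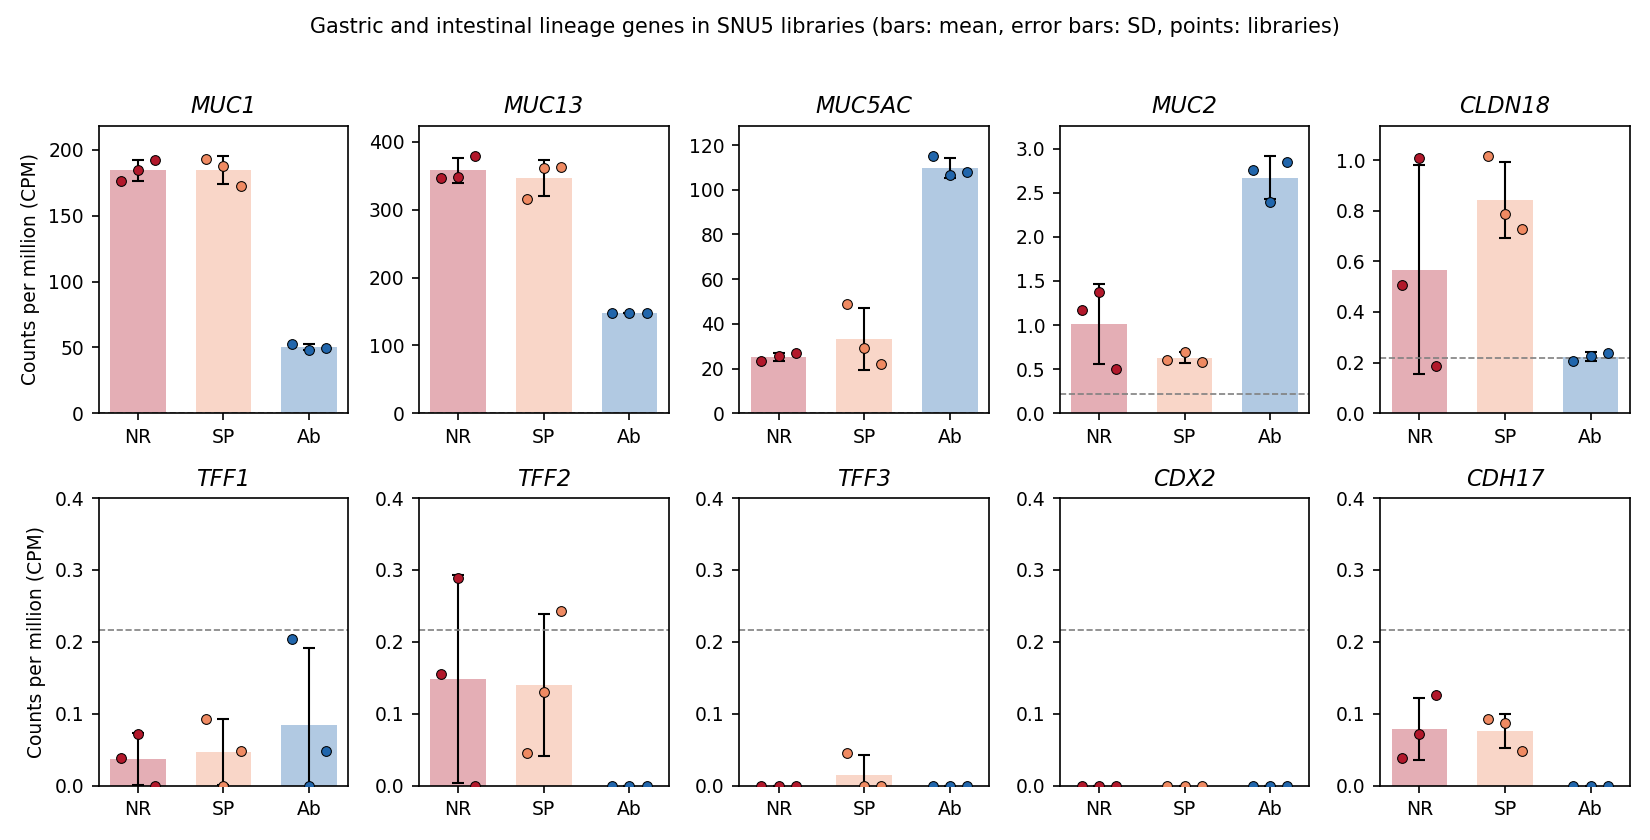
Levels in CPM (vertical axes, linear and scaled to each gene) of the 10 lineage genes in the NR, SP and Ab groups; bars are means of 3 libraries, error bars are SD, points are libraries, and the dashed line is the highest detection floor of any library (0.216 CPM). MUC1 and MUC13 stood higher in all NR and SP libraries than in Ab, MUC5AC and MUC2 stood lower, and most values of the trefoil factors, CDX2 and CDH17 lay under the floor.

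The membrane mucins MUC1 and MUC13 both rose with either nanoparticle. MUC1 (ENSG00000185499, chromosome 1, 155158300 to 155162707, minus strand, GRCh37) is a cell surface mucin carried by most glandular epithelia. Its counts were 4541, 2562 and 3071 with NR, 4189, 4296 and 3555 with SP, and 1033, 1271 and 1034 with Ab. In CPM these were 185 ± 8.08 with NR, 184 ± 10.7 with SP and 50.1 ± 2.39 with Ab (mean ± SD, n = 3). All 6 nanoparticle libraries lay above all 3 Ab libraries, with a gap far wider than the spread within groups. With edgeR's quasi-likelihood test the log2 fold change of MUC1 was 1.86 (SE 0.05, adjusted p = 4.22e-22) for NR against Ab, a 3.62-fold rise. For SP against Ab it was 1.86 as well (SE 0.06, edgeR adjusted p = 6.05e-21).

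MUC13 (ENSG00000173702, chromosome 3, 124624289 to 124672663, minus strand) is a membrane mucin of gastric and intestinal epithelium. Its counts were 8920, 4829 and 6035 with NR, 6849, 8267 and 7472 with SP, and 2882, 3895 and 3099 with Ab. Scaled to the library total, this gave 358 ± 17.9 CPM in NR, 346 ± 26.5 with SP and 148 ± 0.39 with Ab (SD, n = 3). Again no nanoparticle library reached down to the Ab libraries, which were close to identical to each other. The log2 fold change was 1.25 (SE 0.05, edgeR adjusted p = 1.09e-19) in NR and 1.21 (SE 0.05, adjusted p = 6.88e-18) in SP, which are rises of 2.38-fold and 2.31-fold. As MUC1 moved further than MUC13, the ratio of MUC13 to MUC1 counts fell from 2.79 to 3.06 in the Ab libraries to 1.63 to 2.1 in the others.

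The 250 bases before the start sites of both genes are shown because the pair rose together, and those of MUC2 because that gene moved the other way. They are RefSeq sequences of GRCh38.p14, a later build than that of the counts, and are read 5′ to 3′ on the gene's strand. Capitals mark matches, on either strand, to letters that were chosen while these sequences were in view. The GC box was searched as GGGCGG. For the homeobox factors of the CDX family the letters were CATAAA. A site of the nuclear receptor HNF4 was searched as CAAAGTCCA, and one of the zinc finger factors of the GATA family as GATAA. For MUC1, with entries for 2 start sites, the first is given.
MUC1, chr1:155192916-155193165, minus strand: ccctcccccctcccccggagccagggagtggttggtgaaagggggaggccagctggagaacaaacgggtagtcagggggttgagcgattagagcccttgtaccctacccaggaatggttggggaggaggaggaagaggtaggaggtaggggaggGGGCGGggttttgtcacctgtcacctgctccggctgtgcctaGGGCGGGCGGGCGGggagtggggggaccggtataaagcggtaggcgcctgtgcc
MUC13, chr3:124934752-124935001, minus strand: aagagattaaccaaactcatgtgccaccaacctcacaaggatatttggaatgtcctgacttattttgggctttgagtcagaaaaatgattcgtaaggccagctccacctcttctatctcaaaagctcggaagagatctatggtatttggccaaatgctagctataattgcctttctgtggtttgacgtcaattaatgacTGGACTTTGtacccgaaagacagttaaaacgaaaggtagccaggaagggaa
MUC2, chr11:1074624-1074873, plus strand: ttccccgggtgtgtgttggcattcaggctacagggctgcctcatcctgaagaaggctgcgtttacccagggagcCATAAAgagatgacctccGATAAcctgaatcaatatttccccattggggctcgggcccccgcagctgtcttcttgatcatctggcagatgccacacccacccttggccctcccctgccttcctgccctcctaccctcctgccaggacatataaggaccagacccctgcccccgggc
MUC1 had 4 GC boxes, of which the 3 nearest to the start overlapped one another by 2 bases, in a window otherwise without a match. GC boxes were held by 42.6% of the 35116 RefSeq promoters in the same 250 bases. MUC13 held the HNF4 letters on the opposite strand, 51 to 43 bases before the start, which 0.325% of promoters did. MUC2 held a CDX box (9.64% of promoters) and a GATA site (20.4%). These are matches of letters and not measured binding. CLDN18 and CDX2 also had entries in the table, with GATA letters in both.

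The gel-forming mucins MUC5AC and MUC2 went down. MUC5AC (ENSG00000215182, chromosome 11, 1151580 to 1222364, plus strand), the main secreted mucin of the gastric surface, had 603, 356 and 430 counts with NR, 1056, 664 and 452 with SP, and 2248, 2804 and 2270 with Ab. The mean level was 25.4 ± 1.79 CPM in NR, 33.2 ± 13.9 with SP and 110 ± 4.47 with Ab (SD, n = 3). Library SP1 was the highest of the nanoparticle libraries at 48.7 CPM, still under the lowest Ab library at 107 CPM. The log2 fold change was −2.15 (SE 0.06, edgeR adjusted p = 8.65e-22) in NR, a 4.43-fold fall. In SP it was −1.75 (SE 0.32, edgeR adjusted p = 0.00746), a 3.36-fold fall with a larger error. Without SP1 the SP value was −2.14 (SE 0.09, edgeR adjusted p = 2.12e-10), and in a test against the 2-fold threshold itself SP lost the call (adjusted p = 0.116).

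MUC2 (ENSG00000198788, chromosome 11, 1074875 to 1104416, plus strand), the goblet cell mucin, was near the lower limit of expression. It had 30, 19 and 8 counts with NR, 13, 16 and 12 with SP, and 54, 63 and 60 with Ab, or 1.01 ± 0.45, 0.627 ± 0.062 and 2.67 ± 0.24 CPM (SD, n = 3). Every nanoparticle library was below every Ab library, with NR3 the lowest of NR. The log2 fold change was −1.40 (SE 0.27, edgeR adjusted p = 4.37e-05) in NR and −2.10 (SE 0.27, adjusted p = 8.08e-08) in SP. Against the 2-fold threshold the NR value was not called (adjusted p = 0.149).

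CLDN18 (ENSG00000066405, chromosome 3, 137717577 to 137752497, plus strand) was the only low gene with enough counts for a test in any comparison. Counts were 13, 14 and 3 with NR, 22, 18 and 15 with SP, and 4, 6 and 5 with Ab. All 3 SP libraries lay above Ab, whereas NR3 lay just below the Ab range (0.188 CPM, with 0.204 to 0.238 CPM in Ab) and the other NR libraries above it. The log2 fold change in SP was 1.86 (SE 0.43, edgeR adjusted p = 0.000412), which against the 2-fold threshold became adjusted p = 0.0566. In SP the gene passed the count filter only through the SP libraries, so its direction there was set on entry. In NR the gene missed the count filter and was not tested. Without NR3 it passed the filter and was called there (log2 fold change 1.60, adjusted p = 0.0138 with edgeR), as it was with all 9 libraries in one fit (1.23, edgeR adjusted p = 0.04). It was not called with DESeq2 (adjusted p = 0.178), with no filter beyond 1 count (edgeR adjusted p = 0.0817) or without Ab1 (edgeR adjusted p = 0.0913). Which of the gastric and lung forms of CLDN18 the reads came from was not analysed here.

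Trefoil factors were nearly absent. TFF1 (ENSG00000160182, chromosome 21, 43782391 to 43786644, minus strand), the trefoil peptide of gastric surface cells, had 1, 1 and 0 counts with NR, 2, 0 and 1 with SP, and 4, 0 and 1 with Ab. TFF2 (ENSG00000160181, chromosome 21, 43766466 to 43771106, minus strand), that of gastric neck and gland cells, had 4, 4 and 0 counts with NR, 1, 3 and 5 with SP, and 0 in all 3 Ab libraries. NR3 was at the level of Ab, and SP lay above Ab by 1 to 5 counts. TFF3 (ENSG00000160180, chromosome 21, 43731777 to 43735519, minus strand), the goblet cell trefoil, had 1 count in SP1 and 0 elsewhere. No fold is given for any of them, since the counts were too few for the test. When no filter was applied beyond 1 count, TFF2 was called higher in NR (adjusted p = 0.0240 with edgeR) and in SP (adjusted p = 0.0265), and with DESeq2 it was not (adjusted p = 0.0961 and 0.0775).

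The intestinal genes CDX2 and CDH17 were at the floor. CDX2 (ENSG00000165556, chromosome 13, 28535055 to 28543452, minus strand) had 0 counts in all 9 libraries, which at these depths allows up to 0.114 to 0.216 CPM. CDH17 (ENSG00000079112) had 1, 1 and 2 counts with NR, 2, 2 and 1 with SP, and 0 in each Ab library. At such counts a difference between groups was not detectable. Intervals and floors of this kind cover counting error only.

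Levels were compared between genes per exon length. In NR the order was MUC13 at 371 ± 21.1 TPM, MUC1 at 279 ± 14.7 and MUC5AC at 15.5 ± 1.24, followed by TFF2, CLDN18, MUC2 and TFF1, all with means under 1 TPM and overlapping libraries. In SP it was MUC13 at 364 ± 28.1 TPM, MUC1 at 282 ± 17.8 and MUC5AC at 20.6 ± 8.60, then CLDN18, TFF2, TFF1 and MUC2, whose neighbours overlapped. The libraries of the first 3 genes did not overlap in either group. In Ab MUC13 stood at 167 ± 2.46 TPM, MUC1 at 82.5 ± 2.88 and MUC5AC at 73.2 ± 2.05, and the libraries of these 3 genes did not overlap on this scale. Per longest transcript MUC1 and MUC5AC were nearly level there, at 80.6 and 79.7 TPM, so their order in Ab is not settled. Next came MUC2 at 1.43 ± 0.12, TFF1, whose libraries overlapped those of MUC2 and CLDN18, and CLDN18 at 0.24 ± 0.02, with TFF2 at 0. MUC5AC thus came within a small distance of MUC1 with free antibody and far below it with the nanoparticles. The count ratio of MUC1 to MUC5AC was 0.453 to 0.460 with Ab, 7.14 to 7.53 with NR and 3.97 to 7.87 with SP. Among the 26963 genes detected in NR, 98.7% were below MUC13 and 98.2% below MUC1 in TPM. The exon models of MUC5AC and MUC2 in the annotation are short versions of large genes with repeats, so their levels per length are uncertain.

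**Figure D2:**
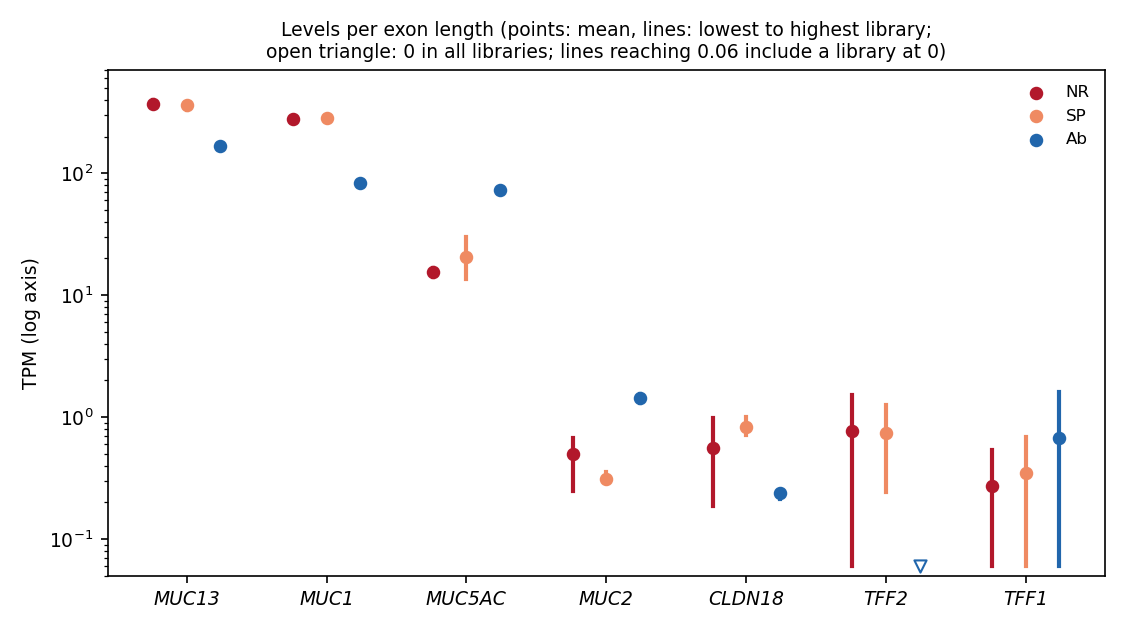
Levels in TPM on a log axis of the 7 lineage genes above the floor in some library, for NR, SP and Ab; points are means of 3 libraries, lines run from the lowest to the highest library, and the open triangle marks TFF2 with Ab, at 0 in all libraries. MUC13 was highest in every group, and MUC5AC was close to MUC1 with Ab (73.2 and 82.5 TPM) and far below it in NR (15.5 and 279 TPM).

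Counted over the 10 genes, 4 had enough counts for the test of NR against Ab. Of these 2 were called higher, where 12.4% of all 15009 genes tested were, and 2 lower, where 10.3% were. For SP against Ab, 5 were tested, with 3 called higher (12.6% of all 15068 genes tested) and 2 lower (10.6%). The 3 include CLDN18, which passed the count filter only through its SP libraries, so that its direction was set on entry. For a call both an adjusted p up to 0.05 and a 2-fold change were required. By the adjusted p alone, 72.7% of all genes tested passed in NR and 73% in SP, so that passing it was common. By size, 4.49% of all genes tested had a larger rise than MUC1 with NR and 8.76% a larger rise than MUC13, and 1.70% a larger fall than MUC5AC. The Ab libraries serve both comparisons, and like values in them are not independent. The study describes its replicates as biological and its in vitro work as independently repeated, while the labels only number the libraries. The p-values measure the spread between these libraries. Mitochondrial genes took 4.36% to 4.66% of counts with NR and SP and 3.41% to 3.71% in Ab, and the part of this difference in the results was not tested.

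**Figure D3:**
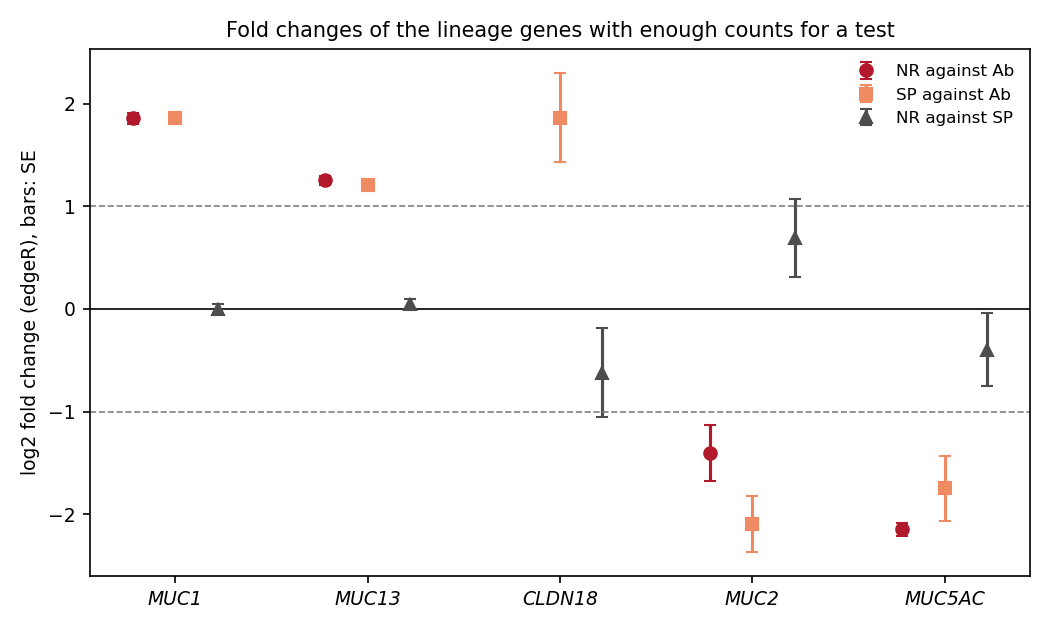
Log2 fold changes with SE (edgeR, n = 3 libraries a group) of the lineage genes with enough counts, for NR against Ab, SP against Ab and NR against SP; dashed lines mark 2-fold. MUC1 and MUC13 lay near 1.86 and 1.2 in both comparisons with Ab and near 0 between NR and SP, MUC5AC and MUC2 lay below −1 against Ab, and CLDN18 was not tested in NR against Ab.

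Rods and spheres were then compared directly, as the question of the study was how the NR and SP groups differ. None of the 5 genes tested was called between NR and SP by edgeR, and none had an unadjusted p under 0.05. DESeq2 gave an adjusted p for MUC1 (0.982) and MUC13 (0.682) alone and called neither. The background was likewise small, at 0.0201% of 14903 genes called with the 2-fold minimum and 0.443% by the adjusted p alone. The log2 fold change of NR against SP was 0.0018 (SE 0.04) for MUC1 and 0.05 (SE 0.05) for MUC13, the smallest errors of the 5. For MUC5AC it was −0.40 (SE 0.35, edgeR adjusted p = 0.726), and −0.01 without SP1. With all libraries MUC2 had the largest difference, 0.69 (SE 0.38, unadjusted p = 0.0786, adjusted p = 0.455 with edgeR), and CLDN18 had −0.62 (SE 0.43, edgeR adjusted p = 0.576). With 1 library left out CLDN18 ran from −1.15 to −0.25 and MUC2 from 0.49 to 0.99. Without NR2 the CLDN18 value (−1.15) was larger in size than that of MUC2 (0.49), so this order hangs on single libraries. With errors of 0.35 to 0.43 on the log2 scale for these last 3, the lack of a call does not show equal levels.

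Gastric markers beyond the 10 genes were scarce. From here on, a change of a gene without further words is its log2 fold change against Ab. Of 26 surface and gland markers (5 of them among the 10 genes), 4 were expressed, MUC1, MUC5AC, PSCA and PGC. At the floor were 12, including LIPF, CTSE, ATP4B and the pepsinogens PGA3, PGA4 and PGA5. In NR 7 were tested, 5 called higher (MUC1 among them) and 2 lower (MUC5AC among them). The median log2 fold change was 1.86, which is the value of MUC1 itself, while the median of all genes was −0.01. In SP 8 were tested, 6 called higher (with MUC1 and CLDN18) and 2 lower (with MUC5AC). PGC, GKN1, AQP5 and MUC6, and CLDN18 in SP, reached the count filter only through the group where they were high. Their direction was thus set on entry, and the numbers called and the median describe the list without testing it. Low genes of the lists that follow can have entered in this way too. For this list and those that follow, the shares of all genes tested were 12.4% higher and 10.3% lower in NR and 12.6% and 10.6% in SP. PSCA, a surface antigen first described in prostate and expressed in gastric epithelium, had 5556, 2932 and 3183 counts with NR, 4515, 4723 and 4609 with SP, and 930, 1116 and 912 with Ab. Its change was 2.21 on the log2 scale (SE 0.05, edgeR adjusted p = 1.63e-23) in NR, although another gene overlaps 20.8% of its exon sequence. PGC, which encodes the pepsinogen progastricsin, had 24 to 36 counts with NR, 23 to 26 with SP and 3 to 8 with Ab. GKN1, a secreted protein of gastric surface cells, rose by 1.57 (SE 0.38, edgeR adjusted p = 0.000563) in NR from 5 to 11 counts with Ab. AQP5, a water channel of pyloric glands, had 0 counts in each Ab library and 7 to 18 in the others, at least 4.16-fold higher in NR against a floor of 3 counts a library. The gland mucin MUC6 had 3, 1 and 0 counts with NR, 2, 2 and 0 with SP and 12, 23 and 17 with Ab, and was called lower in both comparisons (adjusted p = 1.68e-05 and 8.28e-06 with edgeR).

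Transcription factors of the foregut were present in greater number. Of 19 listed, 11 were expressed and 7 at the floor, among them SOX2, GATA4, FOXA2 and PDX1. In NR 11 were tested, with 1 called higher and 4 lower and a median log2 fold change of −0.48. In SP 2 were called higher and 4 lower. The Krüppel-like factor KLF5, which is active in proliferating gut epithelium, was the most abundant and had 7046, 4066 and 4529 counts with NR, 5318, 6421 and 6069 with SP, and 11215, 16123 and 12621 with Ab. It changed by −1.10 (SE 0.04, edgeR adjusted p = 6.86e-19) in NR. FOXQ1, a forkhead factor required for MUC5AC in mouse stomach, fell by 1.90 on the log2 scale (SE 0.06, edgeR adjusted p = 7.34e-21) in NR and by 1.98 with SP. EHF, an epithelial ETS factor, rose from 6, 13 and 10 counts with Ab to 118 to 223 in the others (log2 fold change 4.24 with NR, SE 0.22, edgeR adjusted p = 4.34e-16). Its relative ELF3 had 0.98 with NR, short of 2-fold, and 1.03 with SP, where it was called. BARX1, a stomach mesenchyme homeobox gene, had a log2 fold change of −0.42 with NR and was not called.

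Most intestinal genes were at the floor too, 21 of the 36 on a list that holds 3 of the 10 genes. CDX1, ISX, VIL1, FABP1, GUCY2C, LGR5 and OLFM4 were among them, as were CDX2 and CDH17. The 9 that could be tested in NR split into 6 called higher, 1 called lower and 2 not called (median log2 fold change 1.66). In SP 10 were tested, 7 called higher and 1 lower. ALPI, the intestinal alkaline phosphatase of the brush border, had 28, 40 and 20 counts with Ab, 1103, 576 and 708 with NR and 668, 903 and 832 with SP, with a log2 fold change of 5.0 (SE 0.12, edgeR adjusted p = 1.12e-23) in NR. HNF4A, a nuclear receptor of gut and liver epithelium, rose by 1.66 (SE 0.17, edgeR adjusted p = 9.58e-10) in NR and by 1.76 with SP, from 52 to 57 counts with Ab. USH1C, a scaffold protein of microvilli, rose by 3.20 with NR and 2.93 with SP. The aminopeptidase ANPEP, also of the brush border, went the other way with 2931, 3755 and 3010 counts with Ab and 368 to 748 in the others (log2 fold change −2.42 with NR, SE 0.06, edgeR adjusted p = 5.75e-24). HNF4G, a paralog of HNF4A, had 41 to 71 counts with NR, 59 to 79 with SP and 50 to 79 with Ab and was not called.

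Among 20 goblet cell secretory genes 5 were expressed and 9 at the floor, including ATOH1, CLCA1 and TFF3. In NR 6 were tested, with ELAPOR1 higher and MUC2 and KLF4 lower (median log2 fold change −0.90). In SP 7 were tested, with 2 higher and 3 lower. KLF4, which promotes goblet cell differentiation, fell by 1.69 with NR (SE 0.05, edgeR adjusted p = 2.69e-21) and by 1.60 with SP. SPDEF, a goblet cell transcription factor, had 12 to 26 counts with NR, 21 to 37 with SP and 32 to 44 with Ab and was not called (log2 fold change −0.88 with NR).

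The whole mucin family of 21 listed genes (9 of them also in another list) was taken next. In NR 11 were tested, 4 called higher and 3 lower, with a median of 0.20. In SP the numbers called were also 4 and 3 (median 0.49). Higher were MUC1, MUC13, MUC3A and MCAM, all of the membrane, where MCAM is an adhesion molecule that the list counts with the mucins. The lower genes, MUC5AC, MUC2 and MUC6, were all gel-forming. MUC3A and MUC6 passed the count filter only through the groups where they were high. MUC5B, the remaining gel-forming mucin of this locus, had 52 to 72 counts with NR, 77 to 107 with SP and 36 to 58 with Ab, with log2 fold changes of 0.69 and 1.0 (adjusted p = 0.00444 and 6.62e-05 with edgeR), under the 2-fold minimum in both. MUC16, a very large membrane mucin, had 2178, 1388 and 1670 counts with NR, 4093, 2649 and 2117 with SP, and 1969, 2432 and 1932 with Ab. SP1 was again the highest library, and neither comparison was called (adjusted p = 0.916 and 0.181 with edgeR). MUC3A had 17 to 45 counts with NR, 25 to 29 with SP and 0, 3 and 0 with Ab, and its near-identical neighbour copy makes its counts uncertain.

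Neighbouring genes of these clusters did not all move one way. On chromosome 11 MUC6, MUC2, MUC5AC and MUC5B lie next to each other between AP2A2 and TOLLIP. The first 3 were called lower and MUC5B was not, with the noncoding LINC02688 in their midst at −0.13 (SE 0.34) and TOLLIP at −0.06 (SE 0.09) on the log2 scale in NR. AP2A2, a clathrin adaptor subunit, had 0.29. On chromosome 21 the 3 trefoil genes were at or near the floor, although TMPRSS3, a serine protease gene next to TFF1, had 2061, 1120 and 1304 counts with NR, 1642 to 1785 with SP, and 1122, 1424 and 1074 with Ab (log2 fold change 0.55 with NR, not called). On their other side ABCG1, a cholesterol transporter, had 319 to 535 counts with NR, 288 to 520 with SP and 471 to 649 with Ab. Its log2 fold change was −0.17 with NR (SE 0.08, edgeR adjusted p = 0.062) and −0.32 with SP (SE 0.24, edgeR adjusted p = 0.285), not called in either. Between ABCG1 and TFF3 a miRNA gene of 72 bases, AP001623.1, had 13, 3 and 6 counts with NR, 8, 1 and 12 with SP, and 19, 21 and 21 with Ab. It was called lower in NR (log2 fold change −1.24, SE 0.39, edgeR adjusted p = 0.00624) and in SP (−1.51, SE 0.47, adjusted p = 0.0057 with edgeR), the only called gene of this cluster. AP001623.1 passed the count filter only through Ab. Its model is shorter than the cDNA fragments selected for these poly-A libraries, so which transcript its reads came from is uncertain.

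**Figure D4:**
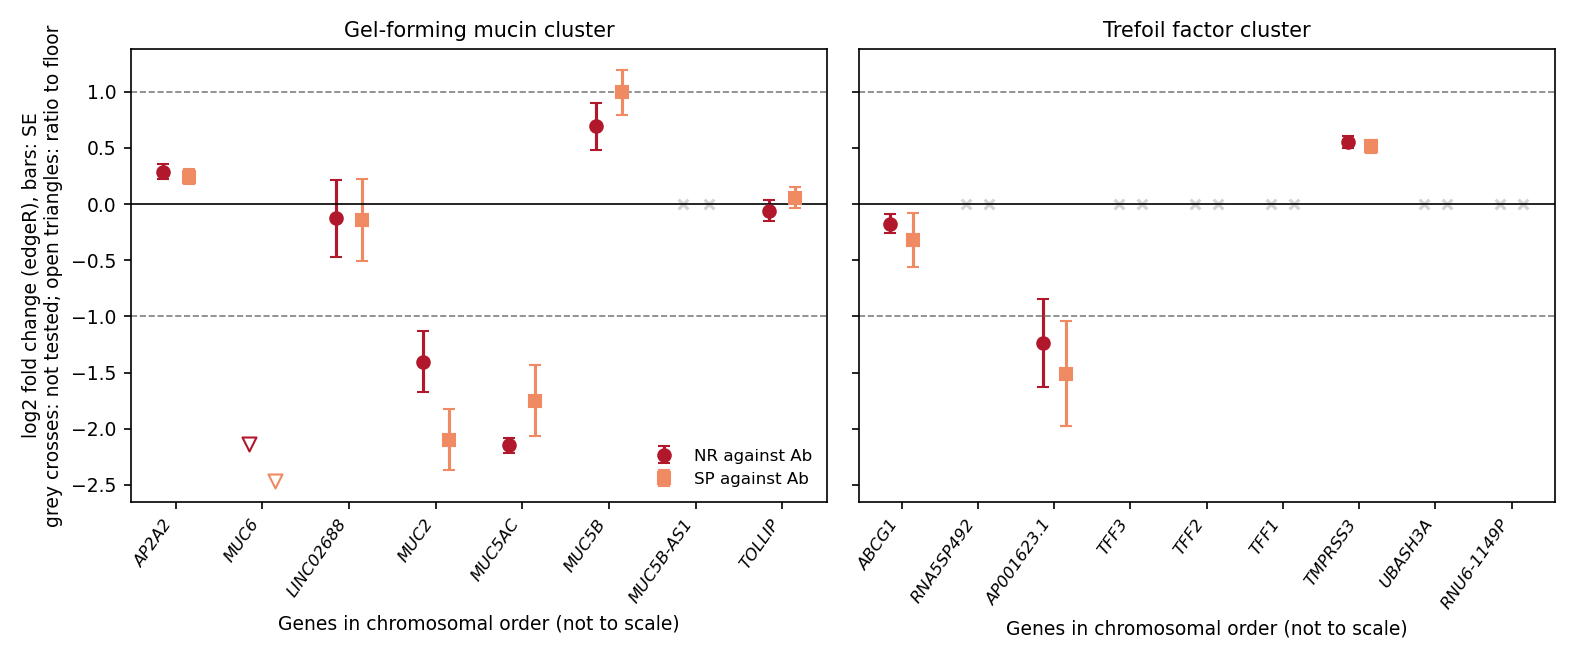
Log2 fold changes with SE (edgeR) of the genes in and within 100 kb of the gel-forming mucin cluster (left) and the trefoil cluster (right), in chromosomal order and not to scale; circles are NR against Ab, squares SP against Ab, grey crosses were not tested, open triangles give MUC6 as the ratio to a floor of 3 counts, and dashed lines mark 2-fold. MUC2 and MUC5AC lay below −1 while MUC5B lay at 0.69 and 1.0 beside them, and TFF1, TFF2 and TFF3 had too few counts.

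The enzymes that build mucin-type sugar chains were counted likewise. Of 27, 14 were expressed and 15 tested in NR, with 4 called higher, 0 lower and a median log2 fold change of 0.63. By the adjusted p alone 14 of the 15 passed, against the background of 72.7%. In SP the 4 were called as well (median 0.55). GCNT3, which makes the core branches of secreted gut mucins, had 232, 151 and 118 counts with NR, 213, 225 and 203 with SP and 14, 17 and 14 with Ab (log2 fold change 3.71 with NR, SE 0.21, edgeR adjusted p = 3.88e-15). The initiating transferases GALNT7 and GALNT11 rose by 1.21 and 1.32 with NR, and B3GNT3, a chain-extending enzyme, by 1.07. GALNT2, the most abundant of the list, had a log2 fold change of 0.73 and was not called.

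The list of 26 claudins and tight junction partners, with CLDN18 among them, held 11 expressed genes. In NR 11 were tested, 2 called higher and 2 lower (median −0.15), and in SP 12, with 3 higher and 2 lower. Of all genes tested 12.4% and 10.3% were called in NR, and nothing particular to claudins is read from these counts. The scaffold TJP3 rose by 2.22 and the junctional adhesion molecule F11R by 3.53 with NR, the latter with another gene over 36.6% of its exon sequence. CLDN15 and CLDN9 fell by 1.61 and 1.85. CLDN1, the most abundant claudin, had −0.76 with NR and CLDN4 0.09, neither called.

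**Figure D5:**
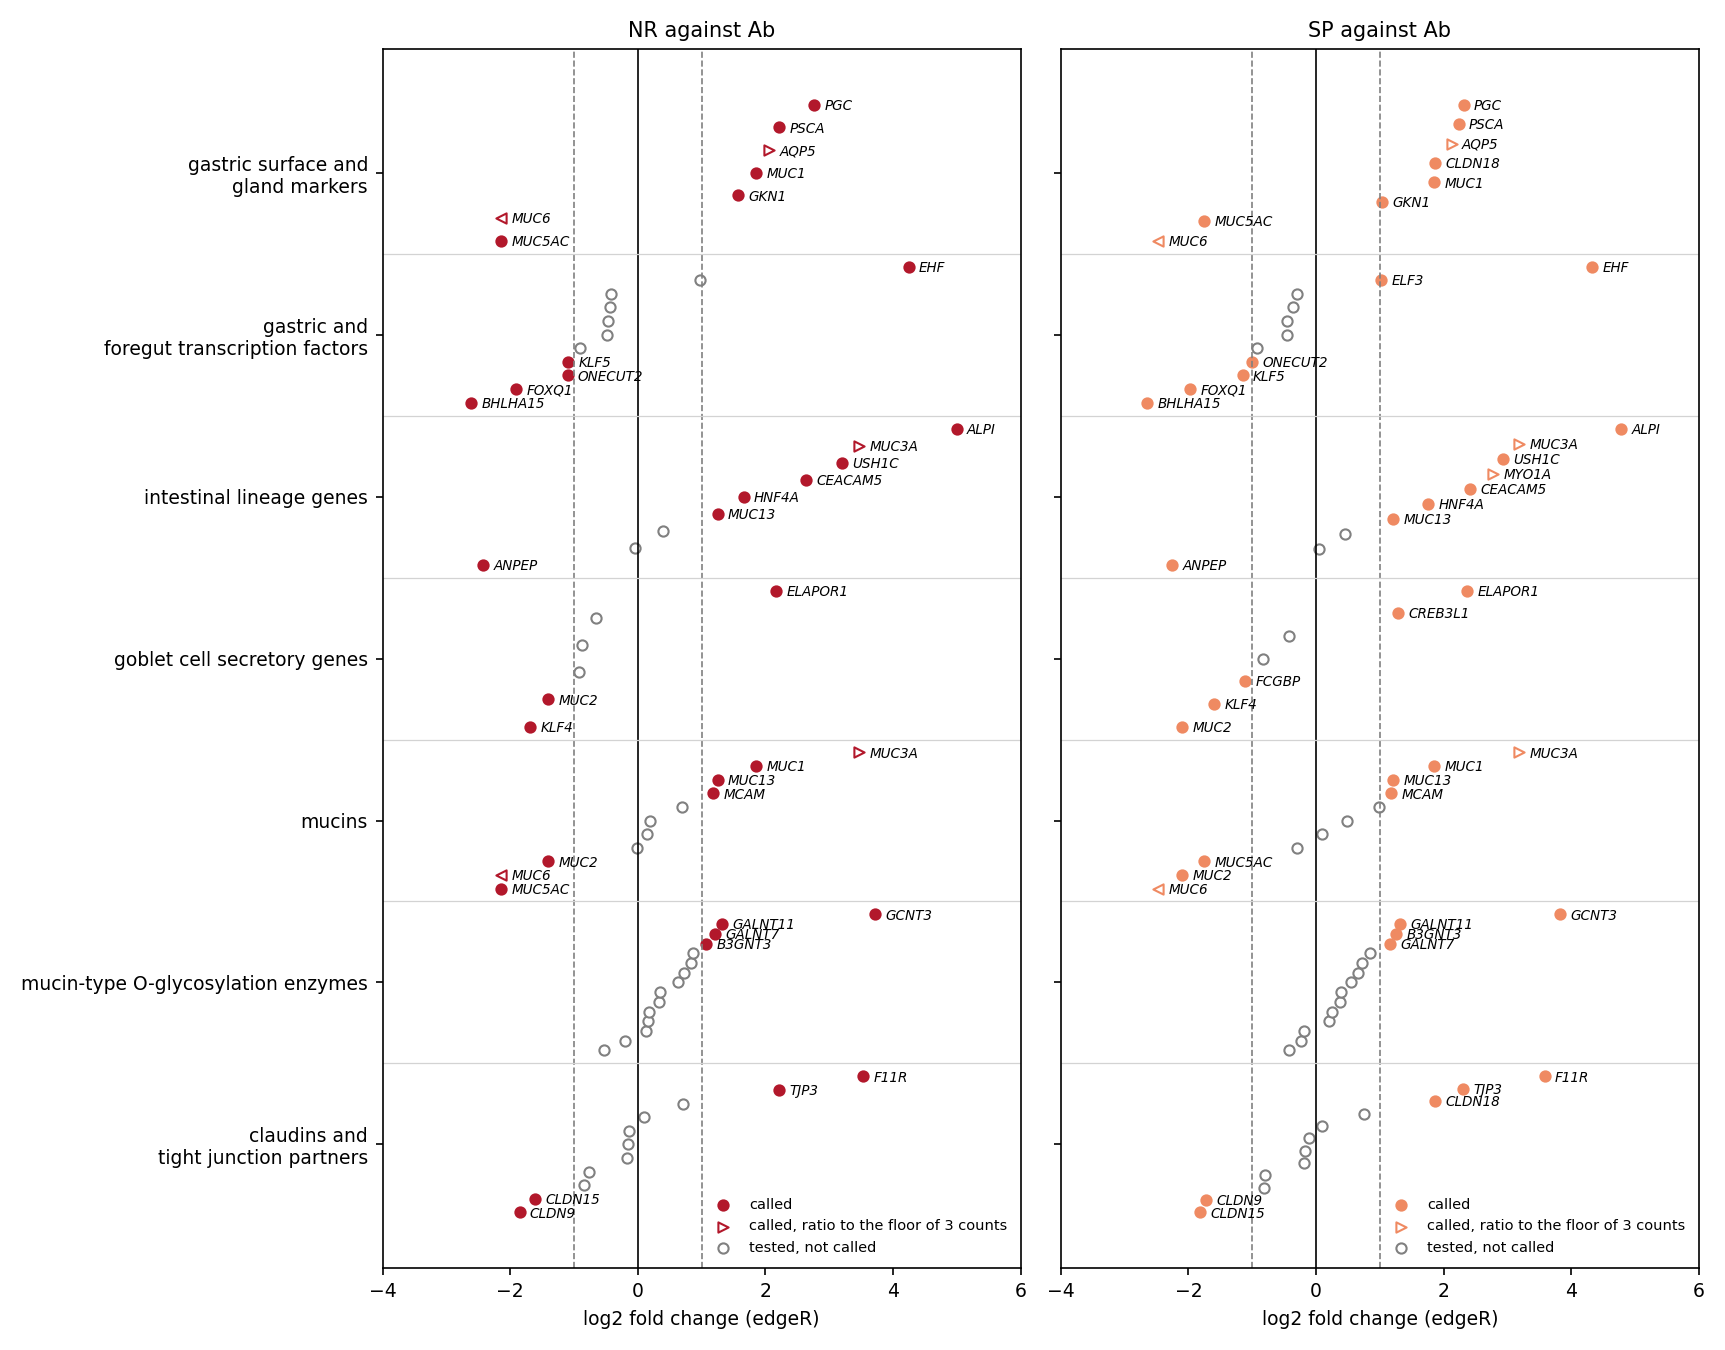
Log2 fold changes (edgeR) of every tested gene in 7 lineage lists, for NR against Ab (left) and SP against Ab (right); filled circles were called, open circles were not, triangles are ratios to a floor of 3 counts where a group was at it, and dashed lines mark 2-fold. Called genes lay on both sides of 0 in each list except the O-glycosylation enzymes, of which 4 were higher and 0 lower.

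Some markers of other cell types also differed from Ab. Of 5 fibroblast markers all were expressed and 2 called higher in either comparison. LUM, a matrix proteoglycan, had 986, 514 and 590 counts with NR, 824, 891 and 802 with SP, and 18, 24 and 20 with Ab, and DCN, its relative, had 280 to 518 against 7 to 21. The summed level of the list was 95.3 to 108 CPM in the nanoparticle libraries and 44.8, 42.0 and 17.3 CPM in Ab1, Ab2 and Ab3. COL1A1 had the most counts of the list in Ab (580, 709 and 293), while LUM and COL1A1 had similar counts in the nanoparticle libraries. COL1A2 had 37, 0 and 0 counts with NR and 198, 278 and 33 with Ab, a wide spread within groups, and was not called. Endothelial CDH5 rose by 2.35 with NR, with VWF at 0, 0 and 1 counts with Ab and 21 to 34 with NR, and TEK was at the floor. Of 4 leukocyte markers 3 were at the floor, and the monocyte marker CD14 had 2, 7 and 3 counts with NR and 21, 13 and 8 with Ab (log2 fold change −1.52, SE 0.57, edgeR adjusted p = 0.0201). Neuroendocrine markers were not called, with SYP at 20 to 40 counts with NR and CHGB and INSM1 at 0. In the epithelial list 3 of 5 were called higher in either comparison (KRT8, CDH1 and EPCAM), and its summed level was 2197 to 2355 CPM in NR and SP and 835 to 885 CPM in Ab. The part of these other markers in the results on the mucins was not tested. In bulk libraries, fewer cells of a kind and less mRNA per cell cannot be told apart.

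Genes with the pattern most like each called lineage gene were found by the smallest root mean square difference of centred log2 CPM over the 9 libraries, among 15471 genes. For MUC1 these were C3, TM7SF2 and SMPD1, at 0.034 to 0.049. For MUC13 they were MSI2, MCAM and CPS1 (0.051 to 0.055), for MUC5AC GADD45B, MTMR7 and MIR193BHG (0.206 to 0.219). MUC2 was closest to MTHFD2P7 (0.198) and CLDN18 to ENSG00000273145 (0.290).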

How the data were processed

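Poly-A libraries of SNU5 cells were prepared from Trizol-extracted RNA with a NEBNext Ultra kit. The authors aligned the reads with Hisat2 (HISAT2 2.1.0 per the labels) to the human genome hg19 and deposited whole read counts per Ensembl gene, not scaled between libraries. The submitters' processing notes name a mouse build, mm9, against human gene IDs. The counting program is given differently in different places of the study, and its strand setting and annotation release are not given in the sources used here. Overlapping genes are therefore uncertain. Version numbers on 10363 IDs were removed, and 59858 of 60880 IDs were found in GENCODE release 44 on GRCh37, which gave names, positions and exon lengths. The remaining 1022 took up to 0.115% of the counts in a library. The deposited counts reach 13863155 to 26318227 per library.

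Pairwise comparisons of the deposited counts took the 6 libraries of the groups concerned. They were made in R 4.3.3 by the robust quasi-likelihood test of edgeR 4.0.16 after TMM scaling and a filterByExpr filter (at least 10 counts, 15 in total), with Benjamini-Hochberg adjustment over all genes tested. SE was the log2 fold change over the root of the F statistic. Alternatives were DESeq2 1.42.0, other scalings, filters, thresholds and lengths, a joint fit, a replicate block and each library left out. The edgeR test with its main settings was also run on simulated counts. Tables and figures used Python 3.11.15, pandas 2.3.3 and matplotlib 3.10.9.

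The 10 genes and the 13 hand-written lists were chosen with earlier results of these data known. Of the listed genes, 2 are not reported here and enter no count. Genes named are the 10, up to 4 of each list by mean TPM and up to 4 called by smallest adjusted p in NR, cluster neighbours within 100 kb, and up to 3 genes alike per called gene. Other listed genes that are named, such as COL1A2 and those at the floor, were taken after their values were seen. Chi-square values per gene between libraries of 1 group were 1.84 to 7.43, above sampling noise, and each library counted as 1 replicate.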

Additional observations from a re-analysis of the deposited data

How the results depend on the processing

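The calls of MUC1 and MUC13 against Ab held under all alternatives run, as did MUC5AC in NR and MUC2 in SP. Over the lineage genes against Ab, 58 of 59 results under the alternatives in NR and 72 of 74 in SP kept direction and call. These tallies include the setting with no fold minimum, which reuses the main fit with a looser rule and could lose no call. The exceptions came with a test against the 2-fold threshold (glmTreat), where MUC2 in NR (log2 fold change −1.40), MUC5AC in SP (−1.75) and CLDN18 in SP (1.86) lost their calls and 3 lineage genes stayed called in SP. With a filter of at least 10 counts in every library, MUC2 in NR and CLDN18 in SP were no longer tested and are missing from these tallies for that setting, leaving 3 and 4 called lineage genes. The test against 2-fold called 2061 genes in NR, 2131 in SP and 0 between NR and SP. With no fold minimum the numbers were 10916, 11002 and 66. Between NR and SP, DESeq2 called 0 genes, no filter beyond 1 count gave 27, and leaving out 1 library gave 0 to 28 (3 with all libraries). NR2 gave the lowest number when omitted and NR1 the highest, while omitting SP1 gave 1 and SP3 gave 5. The called lineage genes in NR numbered 4 to 5 with 1 library left out, CLDN18 being added without NR3. For NR against SP, near-zero values changed sign: MUC1 was −0.00022 with scaling by library total, −1.15e-05 with no filter and −0.041 to 0.038 with 1 library left out (below 0 without NR3 or SP3). MUC13 was −0.012 to 0.085 with 1 library left out (below 0 without SP1). The cause of these changes was not tested.

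Libraries with the same number hardly deviated together (r from −0.032 to 0.028), which does not exclude that the numbers pair them. Between SP and Ab, r was 0.020 to 0.028 for libraries with the same number and −0.019 to −0.004 for the others. With the replicate number as a block, 4, 5 and 0 lineage genes were called in NR, SP and between NR and SP, and 3414, 3493 and 4 genes in all. Levels per length moved with the longest transcript in place of all exons, as for MUC13 from 371 to 334 TPM in NR. In Ab MUC5AC moved from 73.2 to 79.7 TPM, MUC1 from 82.5 to 80.6 TPM and MUC2 from 1.43 to 1.85 TPM. In NR MUC2 moved from 0.499 to 0.646 TPM and CLDN18 from 0.554 to 0.444 TPM. The order of the genes under 1 TPM changed with this length, with MUC2 above TFF2 in NR and above TFF1 in SP. Depth limits the trefoil factors, CDX2 and CDH17, whose counts were too few to show a difference of moderate size. For CLDN18 the limit applies to NR, where the gene missed the count filter.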

Other observations

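Some listed lineage genes had too few counts for a test against Ab and are given as values, chosen after these were seen. GRHL2, a transcription factor of epithelial junction genes, had 11, 8 and 10 counts with NR, 8, 13 and 7 with SP and 0 with each Ab library. AGR2, a disulfide isomerase that mucin-secreting cells use, had 14, 5 and 7 counts with NR, 10, 6 and 8 with SP, and 0, 3 and 0 with Ab. LGALS4, an intestinal galectin, had 4, 2 and 1 counts with NR, 3, 4 and 2 with SP, and 6, 15 and 17 with Ab. None of the differences from Ab was tested.

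Library SP1 held the highest MUC5AC (1056 counts), MUC16 (4093) and MUC5B (107) of the SP group, whereas its MUC13 count of 6849 was the lowest. With 1 library left out, 3620 to 3718 genes were called for SP against Ab (3502 with all), the fewest without SP1.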
